A study of Homo sapiens with 6 samples.

Results

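The proteasome genes of UM-SCC1, a line established from a human squamous carcinoma of the head and neck, were compared between cultures given miR-204-5p mimics and cultures given control mimics. Members were the rows of the deposited gene table whose symbol begins with PSM, a letter from A to G and a digit, 47 of 14959 genes. One of the 47, PSMC3IP, encodes a recombination factor and no proteasome protein, so that 46 proteasome genes remained. RNA was sequenced in 3 libraries per group, labelled as replicates, 48 h after transfection. A mimic is a short synthetic RNA duplex that stands in for a mature microRNA (miRNA), and the groups differ only in the mimic they received. The table gives FPKM, the fragments of a gene scaled to transcript length and to library depth. Levels of different genes may be compared only roughly, because the sources do not say which transcripts the FPKM covers. The line is a single cell line given a transient excess of a miRNA, and nothing in the table measures protein or proteasome activity.

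The proteasome is the protease that degrades most ubiquitin-tagged proteins in the cytosol and nucleus. Its 20S core is a barrel of alpha rings, which gate the entrance, and beta rings, which hold the catalytic sites. The 19S cap binds ubiquitin chains, removes them, unfolds the substrate with a ring of ATPases and feeds it into the core. Interferon-inducible beta subunits can replace the constitutive catalytic ones to form the immunoproteasome, which makes peptides for presentation on MHC class I. Activators, an inhibitor and dedicated assembly chaperones complete the family.

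All 46 listed transcripts were found in GENCODE 29 with the same coordinates and length. Of these, 29 carried its tag for a principal transcript, and 14 had fewer exons than the fullest coding transcript of their gene. The squamous epithelial markers KRT5, KRT14, KRT6A, KRT17, TP63, EPCAM, CDH1 and SFN all had a mean above 1 FPKM in control cells. Of 4 haematopoietic markers 3 lay below 1 FPKM (CD68 had 10.8), of 3 fibroblast markers 2 did (COL1A1 had 8.37), and all 3 endothelial markers did. Depth is unknown. A rough estimate from the steps between low values was 13.1 to 16.4 (in units of 1e6 fragments), on which even PSMG4, the lowest member, would rest on 85.6 to 101 fragments per library. Steps fitted only 26.4% to 29.4% of the low values of genes with 1 transcript within 0.02 of a whole number, so no reads could be recovered.

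The seed of miR-204-5p was looked for in the members because a transfected miRNA acts through pairing of this stretch with messenger RNA. The mature sequence from RefSeq (GRCh38.p14, chr9:70810031-70810052, minus strand) is shown with its seed, bases 2 to 8, in capitals, followed by each member site of at least 7 bases in the longest protein-coding 3'UTR of GENCODE 29, written along the transcript with the match in capitals.
hsa-miR-204-5p: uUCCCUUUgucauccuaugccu
PSMD5 8mer (chr9:120816846-120816875, minus strand, exon 10): gttgatcagagAAAGGGAAacttactccta
PSMC6 8mer (chr14:52727815-52727844, plus strand, exon 14): cagcaagttacAAAGGGAAagtgttgaagc
PSME1 8mer (chr14:24138787-24138816, plus strand, exon 10): aggggagaaacAAAGGGAAtgatctattga
PSMC1 8mer (chr14:90274917-90274946, plus strand, exon 11): tgttcagttagAAAGGGAAagtcacactgg
PSMC1 7mer-m8 (chr14:90272447-90272476, plus strand, exon 11): ctcaatccctgAAAGGGAtgaggttggggg
PSMA5 7mer-m8 (chr1:109400638-109400667, minus strand, exon 9): acatttggaagAAAGGGAttttgccctaga
PSMG4 7mer-m8 (chr6:3265289-3265318, plus strand, exon 2): cactataatgaAAAGGGAgaggtgtcctga
PSMG4 7mer-A1 (chr6:3265175-3265204, plus strand, exon 2): cggcgtctcttAAGGGAAtggtgctgcaga

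Proteasome genes held few such sites. A match of at least 7 bases was found in 6 of 46 proteasome genes (13.0%) and in 27.1% of all 14654 genes with a 3'UTR. Their 3'UTRs were also short, with a median of 358 bases against 1252 bases. Of the 6 genes, PSMD5 was lower with miR-204-5p mimics, PSMA5 was higher, and PSMC1, PSMC6, PSME1 and PSMG4 did not pass the test. The 8mer of PSMD5 lies in exon 10 of the full-length transcript, between exons of the shorter transcript that the table lists. Among the 40 proteasome genes without a match, 14 were higher and 4 were lower (35% and 10%, against 23.9% and 16.8% of all genes).

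With miR-204-5p mimics, 15 proteasome genes rose and 5 fell, by limma on log2(FPKM + 1) at a Benjamini-Hochberg adjusted p-value under 0.05 over all 14959 genes. These 20 of 46 genes (43.5%) compare with 40.8% of all genes called, so the share that changed was near that of the table as a whole. It was below the 49.0% called among the 9611 genes at least as abundant as PSMG4 in control cells. With only genes of a mean FPKM of at least 1 kept, 45.7% of proteasome genes and 50.1% of all genes were called. With 1 library left out, 26.1% to 34.8% of the proteasome genes and 33.2% to 35.9% of all genes were called, and the proteasome share was above that of all genes only without control mimics replicate 2 (34.8% against 33.2%). Rises made up 32.6% of proteasome genes and 23.9% of all genes, and falls 10.9% and 16.8%. Among the 9611 genes at least as abundant as PSMG4 in control cells, 26.6% were higher and 22.4% lower. The 2 groups of libraries did not overlap for 24 of the 46 genes, against 53.6% of all genes and 5913 of the 9611. Changes were modest. The log2 change, the difference of mean log2(FPKM + 1) with miR-204-5p mimics minus control mimics, had a median of 0.08, against 0.03 for all genes, and the extremes were −0.46 for PSMD5 and 0.73 for PSMD14. For 10 members the limma fit kept an adjusted p-value under 0.05 in each of 13 alternatives, namely PSMD14, PSMG1, PSMB8, PSMD1, PSMA3, PSMA5, PSMD2, PSMB9 and PSMD10, which rose, and PSMD5, which fell. The other 10 calls were lost in at least 1 alternative and are given with that limit below.

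**Figure D1:**
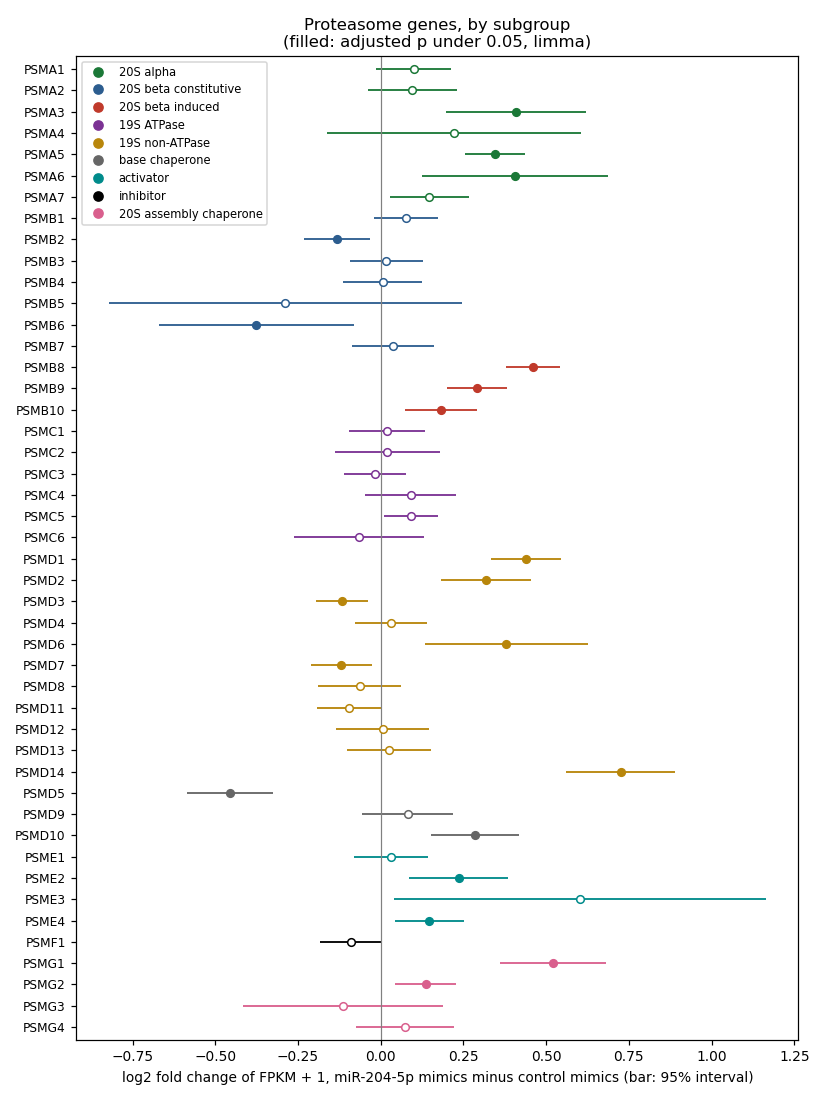
Log2 fold change of FPKM + 1 (x axis, miR-204-5p mimics minus control mimics) for the 46 proteasome genes (y axis), with 95% intervals from limma as bars and colours for the subgroups. Filled points passed an adjusted p-value under 0.05, 15 to the right of 0 and 5 to the left, and the ATPase points are all open.

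Levels spanned a wide range in control cells, from 252 FPKM for PSME1 to 2.71 for PSMG4. After PSME1 came PSMB6 at 233 ± 33.8 (SD, n = 3), PSMB4 at 212 ± 7.25 and PSMB3 at 212 ± 9.08, neighbours that differed by less than their spread. PSME1 had 264, 262 and 245 FPKM with miR-204-5p mimics and 247, 246 and 262 FPKM with control mimics, so the groups overlapped. PSMG4, an assembly chaperone of the core, had 3.08, 2.75 and 2.88 FPKM with miR-204-5p mimics and 2.77, 2.74 and 2.61 with control mimics, again overlapping. The transcript listed for PSMG4 is annotated as a target of nonsense-mediated decay, the only such transcript among the members. By subgroup, the median level in control cells was 181 FPKM for the constitutive beta subunits, 76.9 for the induced beta subunits, 66.2 for the alpha subunits, 39.0 for the non-ATPase subunits and 36.7 for the ATPases of the cap. Summed over the 46 genes, the share of all FPKM was 1.14% ± 0.0166 with miR-204-5p mimics, against 1.12% ± 0.0315 in control cells (SD, n = 3), and the ranges of the groups overlapped.

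**Figure D2:**
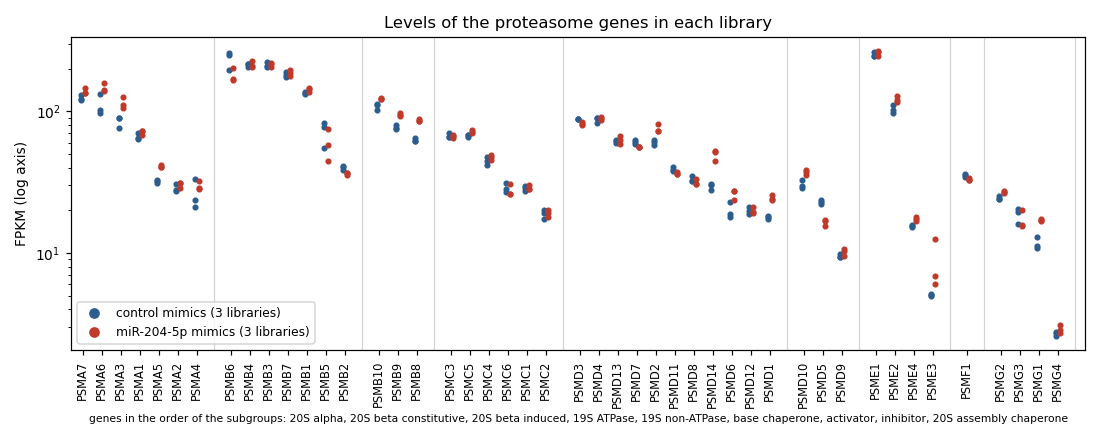
FPKM on a log axis (y) of each proteasome gene (x, grouped by subgroup and ordered by the mean in control cells), with 3 control libraries in blue and 3 libraries with miR-204-5p mimics in red. PSME1 lies highest, followed by PSMB6, PSMB4 and PSMB3, and PSMG4 lowest, and the colours separate for PSMB8, PSMD14 and PSMG1.

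The alpha subunits form the gated outer rings of the core. All 7 had a positive log2 change, as did 55.9% of all genes, and 3 of the 7 rose and none fell. The 42.9% called is near the 40.8% of all genes. PSMA3 had 126, 110 and 105 FPKM with miR-204-5p mimics and 76.8, 89.0 and 90.4 FPKM with control mimics. The groups did not overlap, with a log2 change of 0.41 (SE 0.0881, limma's adjusted p = 0.0112). For PSMA5 the values were 42.0, 40.6 and 40.2 against 31.2, 32.0 and 32.8 FPKM (log2 change 0.35, limma's adjusted p = 0.000765), without overlap although its 3'UTR carries a 7mer match. PSMA6 had 142, 158 and 139 against 102, 132 and 97.9 FPKM (log2 change 0.41, limma's adjusted p = 0.0320), with 1 control library close to the others. The PSMA6 call was lost without any single library except control mimics replicate 2, with an adjusted p-value from 0.0589 to 0.101 by limma, and was 0.0511 after quantile normalization. All 912 bases of the transcript listed for PSMA6 also lie in exons of AL121594.1 on the same strand, so reads of the 2 genes could not be told apart. PSMA7, PSMA1 and PSMA2 had log2 changes of 0.15, 0.10 and 0.10 (limma's adjusted p = 0.0544, 0.141 and 0.223). The transcripts listed for PSMA1 and PSMA2 share 801 of 1505 and 781 of 1487 bases with exons of AC018523.2 and AC010132.3 on the same strand. PSMA4 varied from 21.1 to 33.3 FPKM among the control libraries, more than the groups differed (log2 change 0.22, limma's adjusted p = 0.319), and passed the test only without control mimics replicate 3 (0.0140). The summed alpha FPKM was 544 to 591 with miR-204-5p mimics and 446 to 489 with control mimics.

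Of the 7 constitutive beta subunits, none was higher and 2 were lower (28.6%) with miR-204-5p mimics, against 23.9% and 16.8% of all genes. Their summed FPKM was 1001 to 1051 with miR-204-5p mimics, against 1051 to 1145 with control mimics. PSMB6, the caspase-like catalytic subunit, had 169, 201 and 167 FPKM with miR-204-5p mimics and 249, 195 and 257 with control mimics. The groups overlapped through replicate 2 of each, and the log2 change was −0.38 (SE 0.123, limma's adjusted p = 0.0487). Without replicate 1 or 3 of either group, the adjusted p-value of PSMB6 was 0.131 to 0.136. PSMB2, a non-catalytic subunit, had 36.9, 36.8 and 35.3 FPKM against 40.2, 38.3 and 41.3 (log2 change −0.13, limma's adjusted p = 0.0450), a call lost without any single library except control mimics replicate 2 (0.0705 to 0.124). PSMB5, the chymotrypsin-like subunit and main target of clinical proteasome inhibitors, had 57.4, 44.4 and 75.4 FPKM against 55.1, 77.3 and 82.9. It varied more within groups than between them (log2 change −0.29, 95% interval −0.82 to 0.24, limma's adjusted p = 0.347), and its listed transcript has 444 bases where the longest coding transcript has 1294. PSMB7, the trypsin-like subunit, had 196, 186 and 176 FPKM against 174, 180 and 189, with overlapping groups (log2 change 0.04, 95% interval −0.09 to 0.16, limma's adjusted p = 0.610). PSMB1, PSMB3 and PSMB4, structural beta subunits, had log2 changes of 0.08, 0.02 and 0.01 (limma's adjusted p = 0.186, 0.804 and 0.934).

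All 3 induced beta subunits rose, as did 23.9% of all genes. PSMB8, which takes the place of PSMB5 in the immunoproteasome, had 88.0, 85.3 and 85.8 FPKM with miR-204-5p mimics and 61.6, 64.3 and 61.7 with control mimics, a 1.38-fold difference of the means. The groups lay far apart for their spread (log2 change 0.46, SE 0.0344, limma's adjusted p = 0.000199). PSMB9, which replaces PSMB6, had 93.8, 92.6 and 96.6 against 75.2, 76.0 and 79.6 FPKM (log2 change 0.29, limma's adjusted p = 0.00142). PSMB10, which replaces PSMB7, had 122, 124 and 122 against 102, 111 and 112 FPKM (log2 change 0.18, limma's adjusted p = 0.0194), the smallest of the 3 changes and without overlap. Its adjusted p-value was 0.0627 without mimics replicate 2, and 552 bases of its listed transcript also lie in exons of AC040162.1 on the same strand. The listed transcript of PSMB9 overlaps PSMB8 by 139 bases on the opposite strand and PSMB8-AS1 by 139 bases on the same strand. The summed FPKM of the induced subunits relative to that of PSMB5, PSMB6 and PSMB7 was 0.719, 0.702 and 0.727 with miR-204-5p mimics and 0.498, 0.556 and 0.479 with control mimics. In sum the induced subunits lay below the constitutive ones in all 6 libraries, although PSMB8 lay above PSMB5 in 4 of the 6, and the summed ratio was higher in all 3 libraries with miR-204-5p mimics. Both parts of this ratio moved. The induced sum was 302 to 304 FPKM with miR-204-5p mimics and 238 to 253 with control mimics. In the divisor, mean PSMB6 was 179 against 233 FPKM and mean PSMB5 59.1 against 71.8, falls that were unstable or did not pass the test. The transcript listed for PSMB5 has only 444 bases, so whether its FPKM stands for the gene is not known, and ratios that include PSMB5 share this limit. As single pairs, PSMB9 to PSMB6 was 0.461 to 0.578 against 0.302 to 0.390, PSMB10 to PSMB7 0.622 to 0.692 against 0.582 to 0.616, and PSMB8 to PSMB5 1.14 to 1.92 against 0.744 to 1.12.

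**Figure D3:**
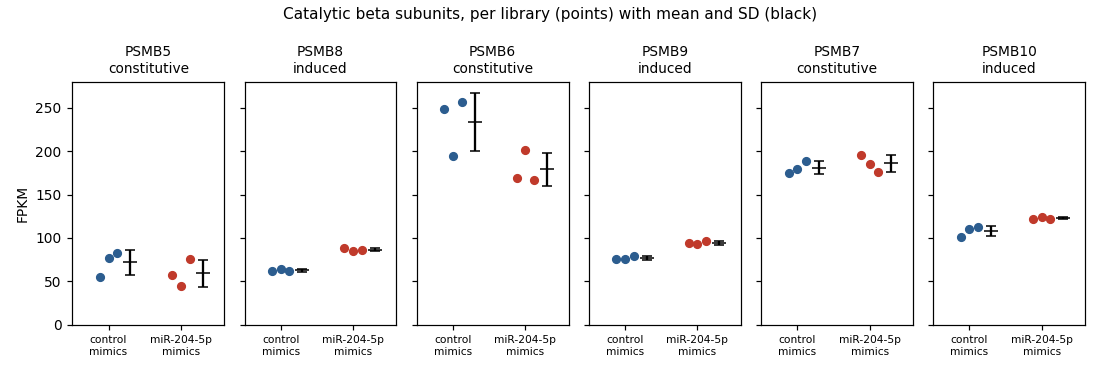
FPKM (y axis) of the constitutive catalytic beta subunits and of the induced subunit that replaces each, in 3 libraries per group (points), with the mean and SD in black. PSMB8, PSMB9 and PSMB10 separate by group, while the points of PSMB5, PSMB6 and PSMB7 overlap.

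Because the induced subunits were the only subgroup of more than 1 gene in which each member rose, the windows around their starts are shown, from 250 bases before to 50 after the RefSeq start (GRCh38.p14). Capitals mark matches on either strand to TGACNNNGC (the core of the antioxidant response element, bound by NFE2L1 and NFE2L2), CCAAT, TTCNNNGAA (the gamma-activated site) and the interferon-stimulated response element, taken as GAAA and GAAA with any 2 bases between.
PSMB8 (chr6:32843998-32844297, minus strand): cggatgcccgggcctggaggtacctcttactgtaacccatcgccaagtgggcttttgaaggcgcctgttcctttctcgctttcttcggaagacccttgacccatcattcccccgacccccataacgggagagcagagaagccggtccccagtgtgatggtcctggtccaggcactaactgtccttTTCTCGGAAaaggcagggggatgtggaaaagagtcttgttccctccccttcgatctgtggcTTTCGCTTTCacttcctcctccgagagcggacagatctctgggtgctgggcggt
PSMB9 (chr6:32853942-32854241, plus strand): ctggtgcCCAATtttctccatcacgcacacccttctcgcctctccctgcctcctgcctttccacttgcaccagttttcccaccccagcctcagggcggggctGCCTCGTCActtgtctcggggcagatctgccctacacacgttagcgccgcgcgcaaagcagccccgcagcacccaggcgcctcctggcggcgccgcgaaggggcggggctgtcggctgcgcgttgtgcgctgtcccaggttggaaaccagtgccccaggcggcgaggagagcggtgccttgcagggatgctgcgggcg
PSMB10 (chr16:67936801-67937100, minus strand): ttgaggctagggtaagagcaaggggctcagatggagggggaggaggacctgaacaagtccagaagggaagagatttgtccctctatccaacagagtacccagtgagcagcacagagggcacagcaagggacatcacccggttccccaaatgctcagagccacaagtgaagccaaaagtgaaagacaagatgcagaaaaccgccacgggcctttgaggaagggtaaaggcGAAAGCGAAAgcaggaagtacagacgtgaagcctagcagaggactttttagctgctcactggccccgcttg

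The printed PSMB8 and PSMB10 windows hold a response element for interferon, and that of PSMB8 also a gamma-activated site. PSMB8 has another RefSeq window (chr6:32844630-32844929, minus strand), not printed, which holds none of the 4 motifs. The PSMB9 window holds neither and lies inside the span of its listed transcript, which starts upstream at 32844136. Windows were given for 40 of the 46 proteasome genes. The interferon-stimulated element was found in 7 of the 40 genes (17.5%), against 4.38% of 27305 genes with a window and 4.13% of the 11452 of them that are in the table. The gamma-activated site was found in 17.5%, against 9.38% and 8.53%. TGACNNNGC was found in 15 of the 40 (37.5%), against 16.1% and 19%, and CCAAT in 47.5%, against 39.7% and 42.6%. Of the 15 genes with TGACNNNGC, 6 were higher and 2 lower with miR-204-5p mimics (40% and 13.3%). Of the 25 without, 9 were higher and 2 lower (36% and 8%). The shares of all genes were 23.9% and 16.8%. Among the 7 carriers of the interferon-stimulated element, PSMB8, PSMB10 and PSME2 rose. The other carriers, PSMA4, PSMB4, PSME1 and PSMG4, did not pass the test. For comparison, 32.6% of the 46 proteasome genes and 23.9% of all genes rose. Of the carriers of the gamma-activated site, PSMB8 and PSMD2 rose and PSMD3 fell, while PSMA2, PSMB5, PSMC4 and PSME3 did not pass. Whether these motifs and the changes are linked was not tested.

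Genes that interferon induces together with these subunits were counted from a fixed list. Of 16, 7 were higher and 3 lower with miR-204-5p mimics (43.8% and 18.8%, against 23.9% and 16.8% of all genes), with a median log2 change of 0.21. With 1 library left out, 9 or 10 of the 16 were called, 7 or 8 of them higher. IRF1, a transcription factor of the immunoproteasome genes, rose from 22.6 ± 1.24 to 31.8 ± 1.85 FPKM (SD, n = 3; log2 change 0.48, limma's adjusted p = 0.00134). TAP1 and TAP2, peptide transporter genes beside PSMB8 and PSMB9 and named here for that position, rose by log2 changes of 0.35 each (limma's adjusted p = 0.000663 and 0.00137). HLA-F rose (0.58, limma's adjusted p = 0.000291), although HLA genes share sequence and their reads may be split unevenly. TAPBP, which loads peptides onto MHC class I, fell from 74.1 ± 3.47 to 46.0 ± 2.39 FPKM (log2 change −0.68, limma's adjusted p = 0.000240). Of 19 interferon-stimulated genes outside this group, 2 were higher, IFIT3 and IFIH1 (0.34 and 0.29, limma's adjusted p = 0.0249 and 0.00530), and 3 were lower, OAS2, OAS1 and GBP1 (−0.74, −0.53 and −0.23, limma's adjusted p = 0.00710, 0.0107 and 0.0155). Their median log2 change was −0.17, and 26.3% were called, below the 40.8% of all genes. These counts moved with the libraries and scaling used. Without control mimics replicate 1, 12 of the 19 were called, 2 higher and 10 lower, and after scaling to equal sums or quantile normalization 8 were, 2 higher and 6 lower. IFIT3 was lost without any 1 of the libraries with miR-204-5p mimics or without control mimics replicate 3 (limma's adjusted p from 0.0552 to 0.0809), and GBP1 without control mimics replicate 2 (0.0526).

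None of the 6 ATPases of the cap, PSMC1 to PSMC6, passed the test, against 40.8% of all genes. Their log2 changes ran from −0.07 for PSMC6 to 0.09 for PSMC4 and PSMC5, and all 6 of their 95% intervals lay between −0.26 and 0.23. PSMC5 came closest, with 73.6, 70.9 and 70.4 FPKM against 67.8, 66.1 and 67.7 (limma's adjusted p = 0.0732), and its libraries did not overlap. The transcript listed for PSMC5 has 558 bases where the longest coding transcript has 1579, and that of PSMC2 has 682 against 3054, so whether their FPKM stands for the gene is not known.

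The 11 non-ATPase subunits of the cap did not move together. Of these, 4 rose (36.4%, against 23.9% of all genes), 2 fell (18.2%, against 16.8%) and 5 did not pass the test. PSMD14, the deubiquitinase that releases ubiquitin chains as substrates enter, had 52.3, 51.2 and 44.8 FPKM with miR-204-5p mimics and 30.1, 27.9 and 30.4 with control mimics, a 1.68-fold difference of the means. Its libraries lay well apart (log2 change 0.73, SE 0.0686, limma's adjusted p = 0.000456), and 159 bases of its transcript overlap AC009299.3 on the opposite strand. PSMD7, the inactive partner with which PSMD14 pairs, had 56.0, 56.2 and 55.7 against 63.2, 58.5 and 61.1 FPKM, lower and without overlap (log2 change −0.12, limma's adjusted p = 0.0463). PSMD1 and PSMD2 are the large scaffold proteins of the base. PSMD1 had 23.8, 25.6 and 24.2 FPKM against 17.8, 17.4 and 18.2 (log2 change 0.44, limma's adjusted p = 0.000544). PSMD2 had 81.8, 73.1 and 72.8 against 61.0, 58.1 and 62.6 FPKM (log2 change 0.32, limma's adjusted p = 0.00529). For neither gene did the groups overlap. Of the lid subunits, PSMD6 rose (log2 change 0.38, limma's adjusted p = 0.0259) and PSMD3 fell (−0.12, limma's adjusted p = 0.0298). These calls depended on the libraries used. PSMD6 was lost without replicate 1 or 2 of either group (limma's adjusted p from 0.0747 to 0.0840). PSMD3 was lost without any single library except mimics replicate 3 (0.0663 to 0.0866), and PSMD7 without any except control mimics replicate 2 (0.0926 to 0.130). The ubiquitin receptor PSMD4 had 89.8, 90.5 and 86.6 against 82.2, 89.2 and 89.7 FPKM, with overlapping groups (log2 change 0.03, 95% interval −0.08 to 0.14). PSMD8, PSMD11, PSMD12 and PSMD13 had log2 changes from −0.10 to 0.02. PSMD11, at −0.10, and the inhibitor PSMF1 were called lower after scaling to equal sums or equal medians.

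**Figure D4:**
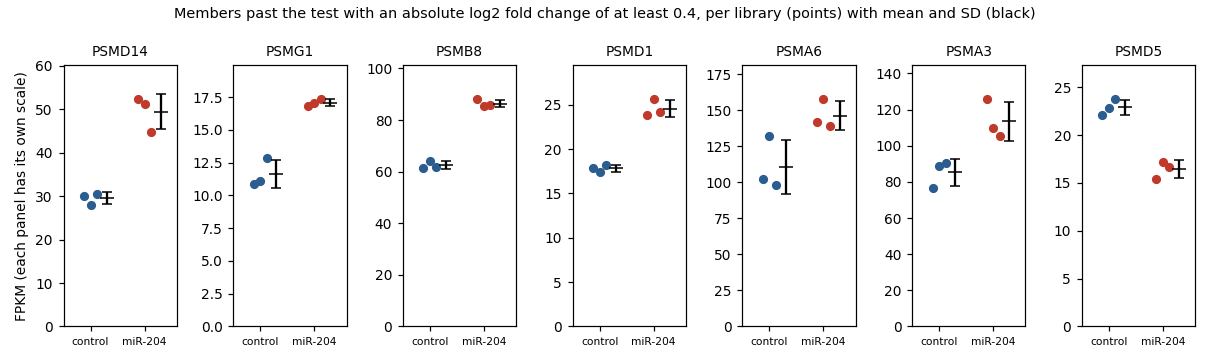
FPKM (y axis, a separate scale from 0 in each panel) in 3 control libraries (blue) and 3 libraries with miR-204-5p mimics (red) for the 7 members past the test with an absolute log2 change of at least 0.4, with the mean and SD in black. PSMD5 is the only one of the 7 that is lower, and in each panel the groups do not overlap.

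The assembly chaperones of the base, which hold ATPases until the ring closes, split in direction. PSMD5 had 15.4, 17.2 and 16.7 FPKM with miR-204-5p mimics and 22.1, 22.9 and 23.7 with control mimics, all lower and without overlap (log2 change −0.46, SE 0.0538, limma's adjusted p = 0.00105). The transcript listed for PSMD5 has 4 exons and 569 bases, where the longest coding transcript has 10 exons and 3443 bases, and the sources do not say whether FPKM was computed for the listed transcript or for the gene. PSMD10, also known as gankyrin, had 37.5, 38.4 and 35.8 against 28.8, 29.8 and 32.6 FPKM (log2 change 0.28, limma's adjusted p = 0.00763), without overlap. PSMD9 had a log2 change of 0.08 (limma's adjusted p = 0.305).

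Among the assembly chaperones of the core, PSMG1, which starts the alpha ring together with PSMG2, had 16.8, 17.0 and 17.3 FPKM with miR-204-5p mimics and 10.9, 11.1 and 12.9 with control mimics. That is a 1.47-fold difference of the means, and the groups did not overlap (log2 change 0.52, SE 0.0670, limma's adjusted p = 0.00146). PSMG2 had 26.5, 27.3 and 27.0 against 25.2, 24.0 and 24.0 FPKM, a smaller rise (log2 change 0.14, limma's adjusted p = 0.0292). The PSMG2 call was lost without replicate 2 or 3 of either group (limma's adjusted p from 0.0670 to 0.0911) and under each of 3 rescalings (0.0655 to 0.137). PSMG3 and PSMG4 did not pass (log2 changes −0.11 and 0.07, limma's adjusted p = 0.515 and 0.388).

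The activators cap the core in place of the 19S particle. PSME1 and PSME2 form one heteromeric ring induced by interferon. PSME2 had 129, 117 and 120 FPKM with miR-204-5p mimics and 97.1, 111 and 102 with control mimics, higher without overlap (log2 change 0.24, limma's adjusted p = 0.0241), while PSME1 did not pass the test (0.03, 95% interval −0.08 to 0.14, limma's adjusted p = 0.633). The PSME2 call was lost without replicate 1 or 3 of either group (limma's adjusted p from 0.0543 to 0.0694). PSME3, the nuclear activator, had 12.6, 6.92 and 6.07 FPKM against 4.94, 5.01 and 5.11. Mimics replicate 1 stood far above the other libraries, the groups did not overlap, and the log2 change was 0.60 (SE 0.234, limma's adjusted p = 0.0837). Without that library the log2 change was 0.31 with an adjusted p-value of 0.0251, and PSME3 also passed without mimics replicate 3 (0.0441). PSME4, which acts on histones, had 16.7, 17.4 and 18.0 against 15.8, 15.6 and 15.3 FPKM (log2 change 0.15, limma's adjusted p = 0.0359), a call lost without any single library except mimics replicate 1 (0.0674 to 0.0958) and under each of 3 rescalings (0.0579 to 0.153). PSMF1, an inhibitor of the core, had 32.5, 32.7 and 34.0 against 35.5, 34.2 and 36.2 FPKM, without overlap (log2 change −0.09, limma's adjusted p = 0.108). PSMC3IP, matched by name only, had 3.13, 2.62 and 4.05 against 1.96, 2.03 and 2.00 FPKM (log2 change 0.50, limma's adjusted p = 0.0181), a call lost without control mimics replicate 1 or 3 (0.0549 and 0.0505).

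Other components and partners of the proteasome, taken from a fixed list of 27, included 4 genes that rose and 9 that fell (48.1% called, against 40.8% of all genes). DDI2, 1 of the 9, is counted again among the regulators below. ADRM1, a ubiquitin receptor of the cap, had 54.2, 53.6 and 54.1 FPKM against 63.3, 63.1 and 65.5 (log2 change −0.24, limma's adjusted p = 0.00168). UCHL5, the deubiquitinase that ADRM1 recruits, went the other way, with 6.56, 7.22 and 6.74 against 4.44, 4.20 and 4.42 FPKM (log2 change 0.55, limma's adjusted p = 0.000699). Both were without overlap. PAAF1, which binds free ATPases, rose (0.58, limma's adjusted p = 0.000575), and HSPB1, a small heat shock protein, fell from 406 ± 15.5 to 256 ± 14.8 FPKM (SD, n = 3; −0.66, limma's adjusted p = 0.000280). USP14, the third deubiquitinase of the cap, had 11.1, 12.7 and 9.23 against 12.8, 14.3 and 15.7 FPKM (−0.35, limma's adjusted p = 0.0568), and passed without mimics replicate 2 (0.0319) and after scaling to equal sums or equal medians (0.0366 and 0.0387). The core maturation factor POMP and the small cap subunit SEM1 had log2 changes of 0.03 and 0.01 (limma's adjusted p = 0.690 and 0.934).

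Transcription of the proteasome subunits is raised by NFE2L1, a membrane-bound factor that the protease DDI2 cuts free. Of 13 genes of this control circuit, 1 rose and 2 fell (23.1% called, against 40.8% of all genes). Median log2 change over these genes was −0.06. DDI2 had 7.72, 8.22 and 8.31 FPKM with miR-204-5p mimics and 13.9, 13.3 and 12.3 with control mimics, lower without overlap (log2 change −0.64, limma's adjusted p = 0.000469). NFE2L1 had 35.9, 38.0 and 22.1 against 47.1, 46.3 and 40.7 FPKM, also without overlap, but its spread was wide and it did not pass (−0.50, limma's adjusted p = 0.0854). NFE2L1 passed without mimics replicate 3 (−0.27, limma's adjusted p = 0.0421) and with a replicate block (−0.50, limma's adjusted p = 0.0367). Of the small MAF partners, MAFK rose (0.48, limma's adjusted p = 0.000815) and MAFG fell (−0.42, limma's adjusted p = 0.0120). Of 6 genes for ubiquitin and its activating enzymes, the fusion gene RPS27A was higher (0.21, limma's adjusted p = 0.0207) and UBA6 was lower (−0.22, limma's adjusted p = 0.00694). That is 33.3% called, against 40.8% of all genes. The RPS27A call was lost without mimics replicate 2 and without replicate 1 or 2 of the control mimics. It was also lost with a replicate block and after scaling to equal medians (limma's adjusted p from 0.0574 to 0.0701 over these fits).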

How the data were processed

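RNA-seq covered 6 UM-SCC1 libraries (Illumina TruSeq kit), 3 per group. FPKM values were computed by the authors and deposited as 1 value per gene, beside 1 listed transcript; the submitters' processing notes name HISAT2, StringTie and hg38, with versions, strand setting and annotation not given in the sources used here. The table also holds log2 ratios and p-values of the authors' own comparison, the latter from edgeR; neither was used. The sample titles number the replicates without saying how they were made, and nothing says whether equal replicate numbers share a day. The table holds no counts, so log2(FPKM + 1) was fitted for all 14959 genes by limma's moderated linear model with an intensity trend (version 3.58.1, R 4.3.3), two-sided, with Benjamini-Hochberg adjustment at 0.05 and no filter. The fit was run on simulated data in which far fewer genes changed than were called here, so that run gives no error rate for these data. Fold changes on this scale understate changes of low genes, and 3 libraries against 3 limit the precision. Transcripts, overlaps and 3'UTRs came from GENCODE 29 (protein-coding transcripts for 3'UTRs), and miRNA and promoter sequences from RefSeq. Of the members, 12 have at least 1 of 32 annotated pseudogenes named after them, and how shared reads were assigned is not given. Every member could be named; values per library were set for the catalytic subunits, for members past the test with an absolute log2 fold change of at least 0.4 and for the highest and lowest member, and those of other members were chosen after they had been seen. Partner genes were named where called with a mean of at least 1 FPKM and among the 4 largest changes of their list, or as a named central factor; TAP1, TAP2 and GBP1 fall outside this and were chosen after their values were seen. Some genes of the lists are not reported here by name. Members and lists were chosen with earlier results of these data known. Alternatives were a pseudocount of 0.1, a mean FPKM of at least 1, a replicate block, each library left out, scaling to equal sums, scaling to equal medians, quantile normalization, no trend, and all 3'UTRs joined. Tables used Python 3.11.15.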

Additional observations from a re-analysis of the deposited data

How the results depend on the processing

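Of the proteasome genes, 12 passed with a replicate block (11 higher and 1 lower; 26.1%, against 34.1% of all genes), against 20 without it (43.5%, against 40.8%). Same-numbered libraries did not deviate together (correlations −0.03, −0.01 and −0.09), and no source pairs them, so the numbers were not taken to mark pairs. Leaving out each library in turn gave 12 to 16 calls, of which 1 to 4 were lower. The count was 12 without replicate 2 of the miR-204-5p mimics and also without control mimics replicate 1, and only PSMD5 was called lower without replicate 1 of either group or without control mimics replicate 3. With no trend in the limma fit, 1 was called lower, also PSMD5. The total FPKM was 283450 to 291860 in libraries with miR-204-5p mimics and 276820 to 280060 in control libraries. Scaling to equal sums or equal medians gave 13 higher and 7 lower. Of all genes, 20.6% were higher and 19.3% lower with equal sums, and 20.8% and 19.7% with equal medians. Uncalled members changed sign after scaling to equal sums and to equal medians: PSMB3 (−0.027 and −0.028), PSMB4 (−0.038 and −0.039), PSMB7 (−0.0067 and −0.0078), PSMC1 (−0.023 and −0.024), PSMC2 (−0.023 and −0.024), PSMD12 (−0.037 and −0.038), PSMD13 (−0.019 and −0.020), PSMD4 (−0.012 and −0.013) and PSME1 (−0.013 and −0.014). Quantile normalization did so for PSMC1 (−0.0037), PSMC2 (−0.0084), PSMD12 (−0.020), PSME1 (−0.0031) and PSMG4 (−0.012). With a library left out, the log2 change of uncalled members that changed sign ran from −0.0063 to 0.051 for PSMB3, −0.035 to 0.036 for PSMB4, −0.0014 to 0.075 for PSMB7, −0.013 to 0.045 for PSMC1, −0.035 to 0.063 for PSMC2, −0.034 to 0.011 for PSMC3, −0.039 to 0.045 for PSMD12, −0.022 to 0.068 for PSMD13 and −0.0088 to 0.054 for PSMD4. Why these values moved was not tested. The 6 genes with a seed match also had one with all 3'UTRs joined. The unknown depth and 3 libraries per group limit all values.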

Other observations

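B2M, the light chain of MHC class I and one of the genes counted beside the induced subunits, had 388, 392 and 47.0 FPKM with miR-204-5p mimics and 242, 259 and 266 FPKM with control mimics. Mimics replicate 3 lay far below the other 5 libraries. The gene was chosen after its values were seen.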
